A study of Mus musculus with 4 samples.

Results

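Respiratory complex I is represented here by 44 of the 19938 genes on arrays of immunoprecipitated RNA from early erythroid progenitors of the mouse. Members were taken by gene symbol, as every gene whose symbol starts with Nduf plus ND3, and only where a probe set carried that symbol alone. They comprise 6 nuclear-encoded core subunits, 28 accessory subunits, 7 assembly factors of the Ndufaf series, the mitochondrially encoded ND3, and 2 genes related by name, Ndufa4 and Ndufa4l2. Ndufb4 has probe sets that carry a second symbol and so named no member. Where a gene had several probe sets, the brightest by mean over all arrays stood for it.

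Complex I is the NADH dehydrogenase of the inner mitochondrial membrane. Its matrix arm takes electrons from NADH through a flavin and a chain of iron-sulfur clusters to ubiquinone, and its membrane arm pumps protons. Core subunits carry out the reaction, accessory subunits surround and stabilise them, and assembly factors build the enzyme without staying in it. Mitochondria of erythroid precursors also make heme, and maturing red cells later lose their mitochondria. The roles given below are known mainly from the human and bovine enzymes.

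The study set RNA precipitated by an RNA-binding protein (RBP) antibody, on 2 arrays, beside RNA precipitated by control rabbit IgG, also on 2. All 4 samples share their source, E14.5 fetal liver of C57BL/6 mice, with no other genotype or treatment given. The cells had been depleted of lineage-positive, Sca-1, CD16/32, CD41 and CD34 positive cells and then sorted for c-Kit and the lowest CD71 signal. The labels do not name the protein, which is taken from knowledge of the published study to be ZFP36L2, a relative of tristetraprolin that binds AU-rich elements of mRNAs.

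Levels are on the log2 scale for 35556 probe sets, and the number of arrays, not a read depth, limited the precision. The median level over probe sets was 5.57 and 5.62 on the RBP arrays and 5.85 and 5.93 on the IgG arrays, and the interquartile range was 3.61 to 3.73 on the RBP arrays and 2.87 to 2.91 on the IgG arrays. The part of this narrower spread on the IgG arrays in the differences below was not tested. The labels do not tell whether replicate arrays stem from separate preparations of cells, so the p-values reflect only array-to-array spread, possibly technical. All 10 markers listed for early erythroid progenitors, among them Kit, Gata1 and Epor, lay on every array above 5.36, the 95th percentile of 1244 chemosensory receptor genes, called the chemosensory level below. Their summed linear level was 16470 and 18300 on the RBP arrays and 10500 and 12390 on the IgG arrays, and 6 of the 10 were called higher on the RBP arrays. Among all genes, 57.8% of those at mean levels of 9 to 10 and 47.2% of those above 10 were called higher. Of the markers of other cells, 3 of 7 hepatocyte, 2 of 7 macrophage, 2 of 4 megakaryocyte, 4 of 6 granulocyte and mast cell, 2 of 3 lymphoid and 4 of 5 endothelial and stromal genes lay above that level on every array. The summed level of these lists overlapped between the groups, except for megakaryocyte genes (425.3 and 446.6 on the RBP arrays against 298.1 and 346.2 on the IgG arrays). Within them limma called the macrophage marker Cd68 lower (-1.59, adjusted p = 0.00568), the granulocyte marker Elane lower (-1.44, adjusted p = 0.0461) and the megakaryocyte marker Gp9 higher (0.82, adjusted p = 0.0141). Among all genes 23.8% were called higher and 6.54% lower. Some members of the same lists went the other way without passing. These were Csf1r (1.12) and Adgre1 (0.58) for macrophages, Mpo (0.06) for granulocytes, and Pf4 (-0.43) and Ppbp (-0.28) for megakaryocytes. The other measured members of these 3 lists had the sign of the called gene. The part of any marker list in the differences below was not tested.

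The comparison of RBP with IgG asked which complex I mRNAs the RBP antibody recovered beyond control IgG. The nuclear-encoded members did not move as 1 block. Of 43, limma called 8 higher and 1 lower on the RBP arrays at a Benjamini-Hochberg adjusted p under 0.05 over all genes, and 34 did not pass. Among all 19938 genes 23.8% were called higher and 6.54% lower, against 18.6% and 2.33% of the nuclear-encoded members. All 44 members had a mean above the chemosensory level, and of the 12835 genes that did so 36.5% were called higher and 6.54% lower. The median difference of the nuclear-encoded members was 0.22 on the log2 scale, beside -0.02 for all genes and 0.40 for genes above the chemosensory level. The samples held no array of input RNA, so the differences could not be set against the amount of each mRNA in the cells. In RNA pooled from many cells, the number of cells holding an mRNA and its amount per cell cannot be told apart.

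The members called higher were the core subunits Ndufs1 and Ndufv1, the assembly factors Ndufaf1, Ndufaf4 and Ndufaf7, and the accessory subunits Ndufb6, Ndufa9 and Ndufb3. The accessory subunit Ndufb10 was called lower. Of these 9 calls, 4 held without RBP replicate 1, where 8.65% of all genes were called higher and 0.497% lower. Without RBP replicate 2, where the shares were 10.3% and 0.757%, the call of Ndufs1 alone held. Ndufs1 was also called in each of the other settings tried.

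**Figure D1:**
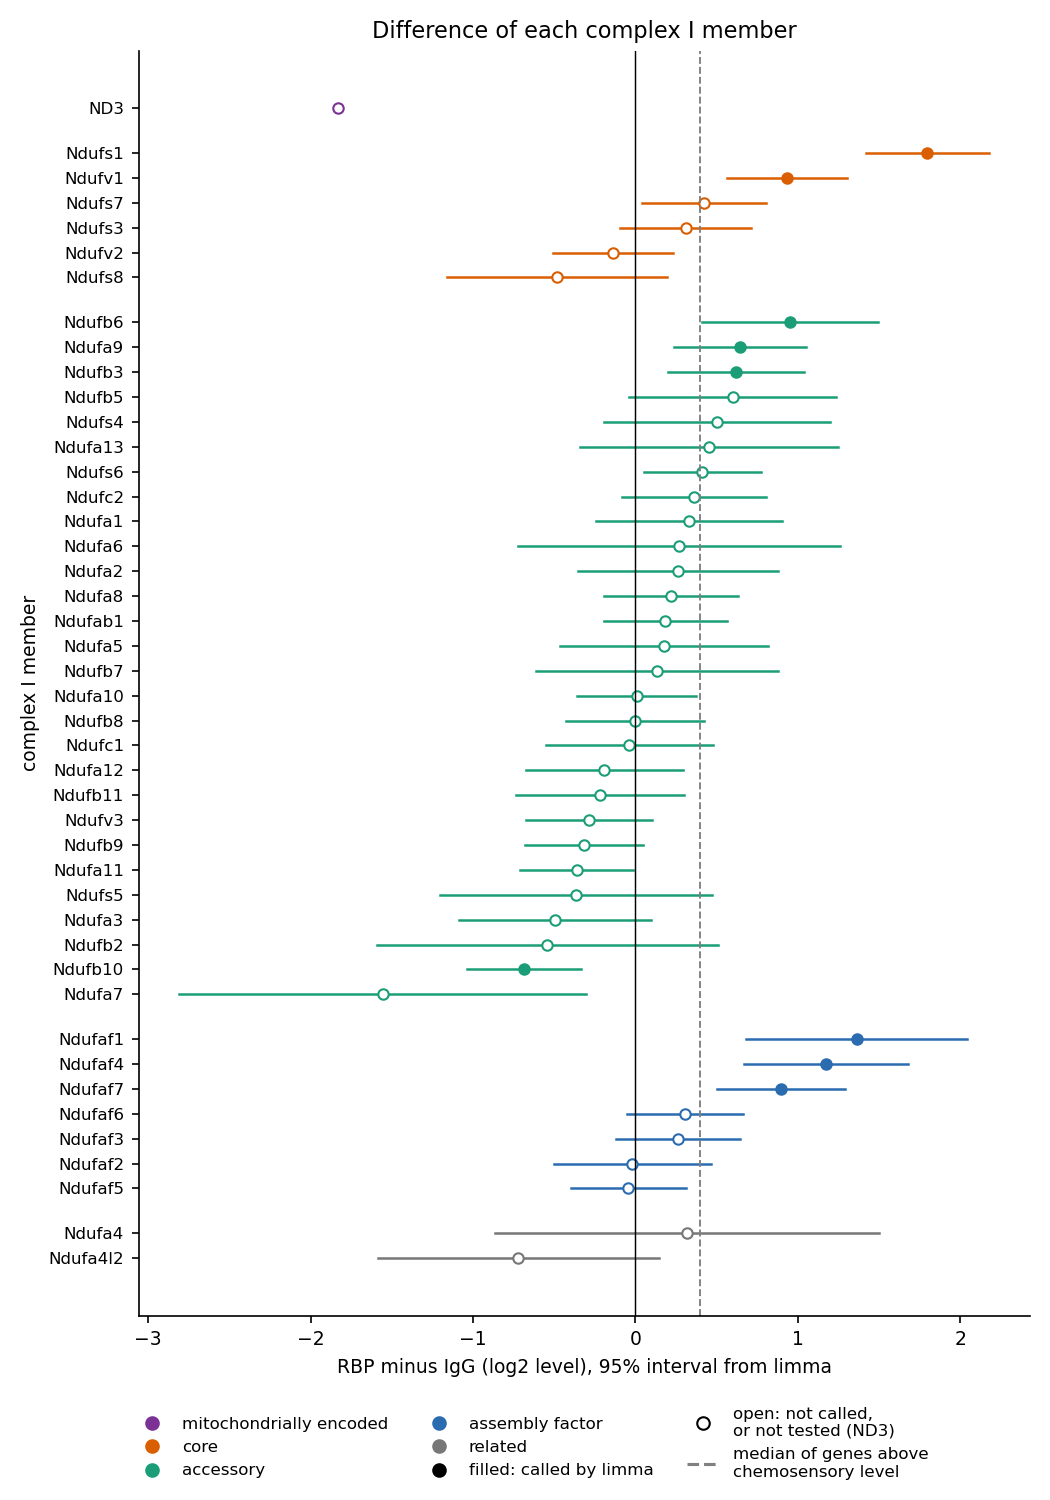
Difference of each member between the RBP and IgG arrays (RBP minus IgG, log2 level), grouped by role, with the 95% interval from limma. Filled points were called, open points were not or, for ND3, were not tested, and the dashed line marks the median of 0.40 of genes above the chemosensory level. Ndufs1 lies farthest to the right and ND3 farthest to the left.

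ND3, a core subunit of the membrane arm encoded in the mitochondrial genome, had the lowest difference of all members. Its level was 10.55 and 9.67 on the RBP arrays, against 11.82 and 12.06 on the IgG arrays. Both RBP arrays lay below both IgG arrays, and the RBP arrays differed from each other by 0.88. The difference of means was -1.83, or 3.56-fold lower, and it is given as a description because ND3 entered the list with its depletion known. A second ND3 probe set read 9.90 and 9.08 on the RBP arrays and 11.35 and 11.47 on the IgG arrays, a difference of -1.92. Both probe sets carry the name through the same cDNA record, and which mitochondrial transcript they read was not tested. Without RBP replicate 1 the difference was -2.27, and without RBP replicate 2 it was -1.39.

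The core subunits of the matrix arm ranged from the highest difference of all members to intervals that spanned 0. Ndufs1, the largest of them and a carrier of iron-sulfur clusters, had 9.85 and 9.86 on the RBP arrays against 8.16 and 7.95 on the IgG arrays. The RBP arrays agreed to within 0.01 and lay well above both IgG arrays. The difference of 1.80 ± 0.15 (SE, n = 2 each), or 3.48-fold, passed limma's test with an adjusted p of 0.00558, and over 11 alternatives the adjusted p reached at most 0.0367.

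Ndufv1, which binds NADH and the flavin at the entry of the chain, had 9.40 and 9.57 on the RBP arrays against 8.58 and 8.52 on the IgG arrays. The groups did not overlap, and the difference was 0.93 ± 0.15 (SE), or 1.91-fold (limma, adjusted p = 0.00934). Ndufv1 did not pass with quantile normalization (0.41; limma, adjusted p = 0.144) or with the level trend removed (0.24, adjusted p = 0.365), both described below. The call was lost without RBP replicate 1 (adjusted p = 0.0579) and without RBP replicate 2 (adjusted p = 0.0847).

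The other core subunits did not pass. Ndufs7, which holds the last iron-sulfur cluster before ubiquinone, had 10.80 and 10.93 on the RBP arrays against 10.53 and 10.35 on the IgG arrays, a difference of 0.42 ± 0.15 (SE; limma, adjusted p = 0.0888). Ndufs3, a core subunit without a cofactor, had 8.45 and 8.73 on the RBP arrays against 8.29 and 8.27 on the IgG arrays, a difference of 0.31 ± 0.16 (adjusted p = 0.194). For both, the RBP arrays lay above the IgG arrays by a margin smaller than for Ndufv1.

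Ndufv2, the iron-sulfur partner of Ndufv1, had 9.91 and 10.02 on the RBP arrays and 10.17 and 10.03 on the IgG arrays. Both RBP arrays lay below both IgG arrays, by a small margin, and the difference of -0.14 did not pass limma's test (adjusted p = 0.497). The 95% interval of its difference ran from -0.51 to 0.23, which leaves out a change of the size seen for Ndufv1. Ndufs8, another iron-sulfur subunit, had 8.61 and 8.88 on the RBP arrays and 9.60 and 8.85 on the IgG arrays, so the groups overlapped and IgG replicate 1 alone stood high. Its difference was -0.86 without IgG replicate 2 and -0.11 without IgG replicate 1. The median difference of the 6 core subunits was 0.37.

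Assembly factors had a median difference of 0.31, and limma called 3 of 7 higher and 0 lower (0 lower also at an unadjusted p under 0.05), and 5 had both RBP arrays above both IgG arrays. The 42.9% called higher stands near the 36.5% of genes above the chemosensory level. Groups were separated in that direction for 37.4% of all genes and 54.9% of genes above the chemosensory level. Ndufaf1, which with Ecsit, Acad9 and Tmem126b forms the complex that builds the proximal membrane arm, had 8.90 and 9.62 on the RBP arrays against 8.07 and 7.72 on the IgG arrays. The RBP arrays were 0.72 apart but both exceeded the IgG arrays, and the difference was 1.36 ± 0.28 (SE), or 2.57-fold (limma, adjusted p = 0.0172).

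Ndufaf4, which works with Ndufaf3 on the ubiquinone-binding part of the matrix arm, had 7.92 and 8.31 on the RBP arrays against 7.10 and 6.79 on the IgG arrays. Its difference was 1.17 ± 0.20 (SE), or 2.25-fold (limma, adjusted p = 0.0113). Ndufaf7, a mitochondrial methyltransferase needed for assembly, had 7.55 and 7.31 on the RBP arrays against 6.57 and 6.50 on the IgG arrays, 0.90 ± 0.16 apart (SE), or 1.86-fold (limma, adjusted p = 0.0119). Each of these genes was separated by more than the gap within either group. With quantile normalization, described below, Ndufaf1 (limma, adjusted p = 0.108) and Ndufaf4 (0.0628) did not pass. With the level trend removed, neither they nor Ndufaf7 passed. The calls of Ndufaf1 (adjusted p = 0.0694), Ndufaf4 (0.0709) and Ndufaf7 (0.0539) were lost without RBP replicate 2, and that of Ndufaf7 also without RBP replicate 1 (0.114).

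Ndufaf3 did not follow its partner Ndufaf4 to the threshold, with 7.69 and 7.90 on the RBP arrays and 7.57 and 7.50 on the IgG arrays (0.26 ± 0.15, SE; limma, adjusted p = 0.231). Ndufaf6, needed for the assembly of ND1, had 6.08 and 5.99 on the RBP arrays and 5.69 and 5.76 on the IgG arrays (0.31 ± 0.14, SE; adjusted p = 0.156). Whether these differences are smaller than that of Ndufaf4 was not tested. Ndufaf2, which docks the NADH-oxidising module late in assembly, had 5.85 and 5.76 on the RBP arrays and 6.05 and 5.60 on the IgG arrays. Ndufaf5, which hydroxylates Ndufs7, had 5.45 and 5.34 on the RBP arrays and 5.44 and 5.44 on the IgG arrays. In both of these genes the groups overlapped, and Ndufaf5 was listed close to the chemosensory level on every array.

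Assembly genes that lie outside the Ndufaf series were called higher more often than not. Their list was chosen with earlier results of these data known, so its shares are given as a description. Of 14 such genes listed, 13 were measured, and limma called 9 higher (69.2%) and 0 lower, also 0 lower at an unadjusted p under 0.05. Of the 13, 12 had a mean above the chemosensory level, where 36.5% of genes were called higher, and 1, Nubpl, lay below it. Among all genes the share was 23.8%. Their median difference was 0.64, and 12 of the 13 (92.3%) had both RBP arrays above both IgG arrays, against 37.4% of all genes and 54.9% of those above the chemosensory level. With the trend of the difference on level removed, as described below, 2 of the 13 were called higher, Tmem126b (limma, adjusted p = 0.0211) and Nubpl (0.0312), and the other 7 calls were lost. Called genes that work with Ndufaf1 were Ecsit (1.29 ± 0.18, SE), Tmem126b (1.02 ± 0.17) and Acad9 (0.89 ± 0.15). Tmem186, a further partner of that complex, differed by 1.36 ± 0.26, and Aifm1, which supports import of complex I proteins, by 1.34 ± 0.17. Foxred1, an oxidoreductase needed late in assembly, differed by 1.29 ± 0.25 and Nubpl, which delivers iron-sulfur clusters, by 0.64 ± 0.16. Dmac2 (0.63 ± 0.16) and Tmem242 (0.61 ± 0.16) also passed, and limma's adjusted p of these 9 ran from 0.00604 to 0.0393. Timmdc1, a membrane arm assembly factor, was the exception in sign, with 9.38 and 9.48 on the RBP arrays and 9.84 and 9.30 on the IgG arrays.

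**Figure D2:**
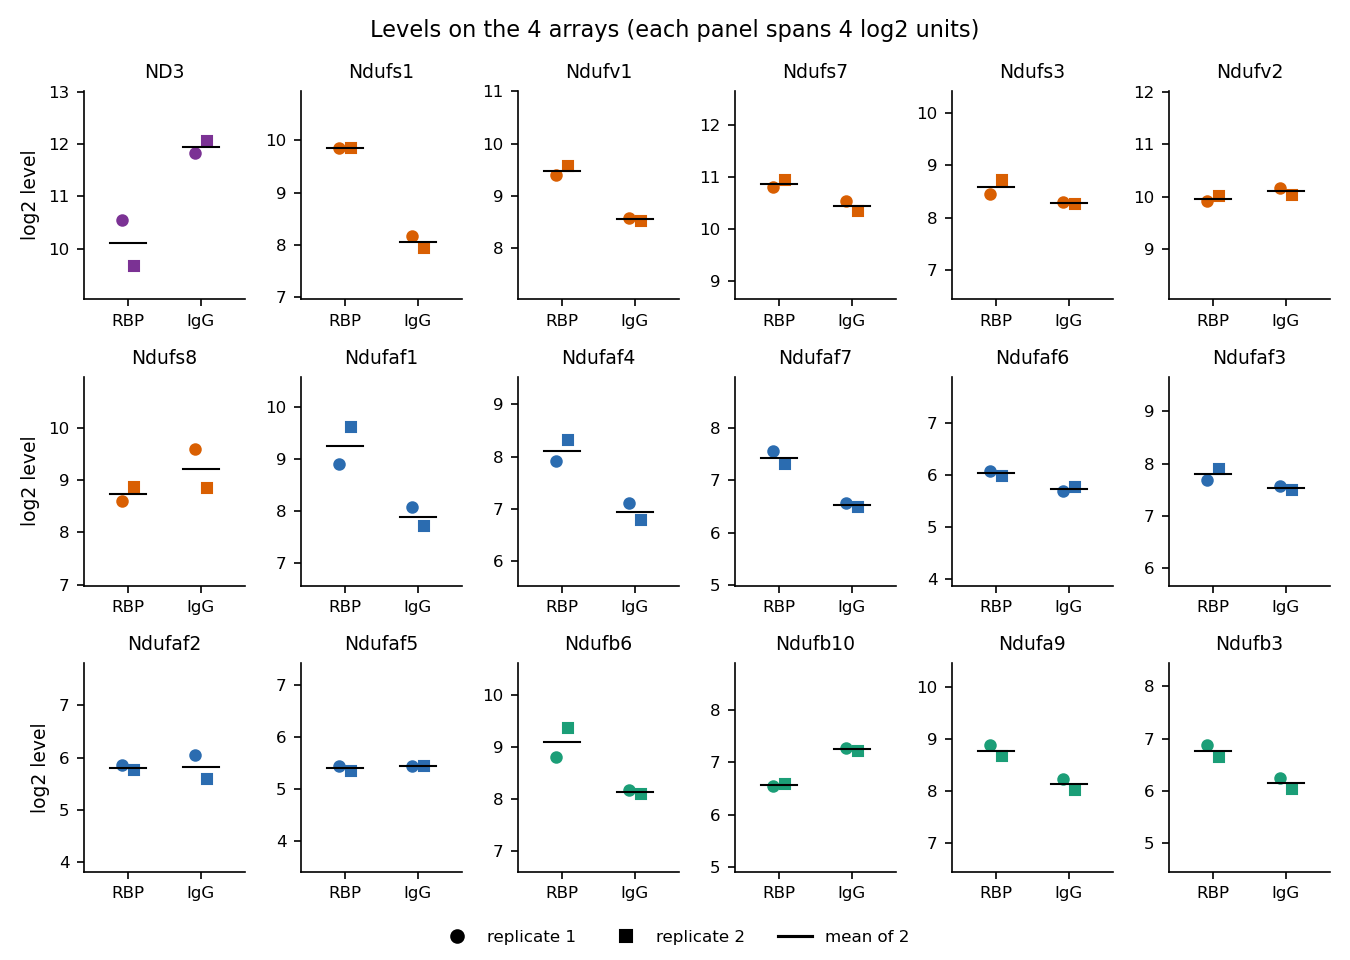
Log2 level on each RBP (left) and IgG (right) array for ND3 (purple), the core subunits (orange), the Ndufaf assembly factors (blue) and the accessory subunits that were called (green), with bars at the group means. The groups are far apart for Ndufs1 and Ndufaf1, overlap for Ndufs8, Ndufaf2 and Ndufaf5, and are reversed in order for ND3, Ndufb10 and, by a small margin, Ndufv2.

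The accessory subunits were the largest class. Of 28, 3 were called higher (10.7%), 1 lower (3.57%) and 24 did not pass. The shares called higher and lower were 23.8% and 6.54% of all genes, and 36.5% and 6.54% of genes above the chemosensory level. The groups overlapped in 14 of the 28, beside 5252 of all 19938 genes and 2853 of the 12835 above that level. Both RBP arrays exceeded both IgG arrays in 8 accessory subunits (28.6%) and lay below them in 6 (21.4%). Among all genes 37.4% and 36.2% were separated in these directions, against 54.9% and 22.9% of genes above the chemosensory level. The differences of the accessory subunits ran from -1.56 to 0.95 with a median of 0.16.

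Ndufb6, a subunit of the distal membrane arm, had 8.80 and 9.37 on the RBP arrays against 8.17 and 8.10 on the IgG arrays, a difference of 0.95 ± 0.22 (SE; limma, adjusted p = 0.0251). Ndufa9, a nucleotide-binding subunit where the arms meet, had 8.88 and 8.67 on the RBP arrays against 8.24 and 8.02 on the IgG arrays, 0.64 ± 0.17 apart (adjusted p = 0.0343). Ndufb3, a small subunit of the distal membrane arm, had 6.88 and 6.64 on the RBP arrays against 6.25 and 6.03 on the IgG arrays, 0.62 ± 0.17 apart (adjusted p = 0.0411). The RBP arrays exceeded the IgG arrays in all of these, by less than in Ndufs1. With quantile normalization, described below, none of them passed (limma, adjusted p = 0.259, 0.680 and 0.0579 in the same order). None did with the level trend removed.

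Ndufb10, a distal membrane arm subunit with disulfide bonds, went the other way, with 6.54 and 6.59 on the RBP arrays against 7.28 and 7.22 on the IgG arrays. Its replicates were within 0.06 of each other in both groups, and the difference was -0.69 ± 0.14 (SE), or 1.61-fold lower (limma, adjusted p = 0.0180). The calls of Ndufb6 (limma, adjusted p = 0.148), Ndufa9 (0.123), Ndufb3 (0.130) and Ndufb10 (0.129) were lost without RBP replicate 2. Without RBP replicate 1, those of Ndufa9 (0.264), Ndufb3 (0.298) and Ndufb10 (0.165) were lost, and without IgG replicate 2 those of Ndufb6 (0.0539), Ndufa9 (0.0550) and Ndufb3 (0.0676).

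Ndufa7, a matrix arm subunit, had the largest accessory difference and the widest interval. It read 7.31 and 7.08 on the RBP arrays against 9.57 and 7.93 on the IgG arrays. The RBP arrays lay below both IgG arrays, whose gap of 1.64 was as large as the difference itself (-1.56 ± 0.51, SE; limma, adjusted p = 0.0662). Among the subunits with the smallest differences, Ndufb8 of the membrane arm had 7.74 and 7.62 on the RBP arrays and 7.84 and 7.52 on the IgG arrays. Ndufa10, a kinase-like subunit on the matrix face, had 9.79 and 9.74 on the RBP arrays and 9.84 and 9.69 on the IgG arrays. For these, the 95% intervals of the difference ran from -0.43 to 0.42 and from -0.36 to 0.37. Ndufc1 had 8.10 and 7.97 on the RBP arrays and 8.33 and 7.82 on the IgG arrays, and Ndufb7, a subunit facing the intermembrane space, had 8.03 and 8.19 on the RBP arrays and 8.42 and 7.53 on the IgG arrays. In each of these 4 genes the RBP values fell between the IgG values.

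The remaining accessory subunits had differences between -0.54 and 0.60, and none of them passed limma's test. Ndufs6, which carries zinc in the matrix arm, had 7.68 and 7.79 on the RBP arrays against 7.37 and 7.28 on the IgG arrays (adjusted p = 0.0821). Ndufb5, of the distal membrane arm, averaged 7.84 ± 0.22 on the RBP arrays against 7.24 ± 0.47 on the IgG arrays (SD, n = 2 each; limma, adjusted p = 0.129). In both the groups were separated, by a narrower margin for Ndufb5, whose IgG arrays lay far apart.

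Ndufs4, a matrix arm subunit whose loss causes Leigh syndrome in people, had 8.91 and 9.17 on the RBP arrays and 8.93 and 8.14 on the IgG arrays. Ndufa13, also known as GRIM-19, had 8.11 and 8.29 on the RBP arrays and 8.23 and 7.27 on the IgG arrays. In each of these the RBP arrays lay close to IgG replicate 1 and well above IgG replicate 2.

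Among those with both RBP arrays below both IgG arrays, Ndufa11, a membrane arm subunit, had 8.86 and 8.86 on the RBP arrays against 9.24 and 9.20 on the IgG arrays (-0.36 ± 0.14, SE; limma, adjusted p = 0.103). Ndufa3, another membrane arm subunit, had 8.45 and 8.46 on the RBP arrays against 9.28 and 8.62 on the IgG arrays. Ndufb9 had 8.09 and 8.18 on the RBP arrays against 8.52 and 8.39 on the IgG arrays. The RBP arrays repeated each other closely in these genes, and the IgG arrays did so for Ndufa11 and Ndufb9 but not for Ndufa3.

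By position in the enzyme, the 9 accessory subunits of the matrix arm had a median difference of 0.26 and the 18 of the membrane arm a median of 0.00, with 1 and 2 called higher (11.1% of each) and 0 and 1 called lower, against 23.8% and 6.54% of all genes. Ndufab1, the acyl carrier protein found in both arms, had 8.89 and 8.90 on the RBP arrays and 8.82 and 8.61 on the IgG arrays. The difference between arms was not tested. The related genes did not pass. Ndufa4, now assigned to cytochrome c oxidase, had 9.03 and 8.77 on the RBP arrays and 9.34 and 7.82 on the IgG arrays. Its paralog Ndufa4l2, known as a hypoxia-induced gene, had 6.82 and 6.25 on the RBP arrays and 7.72 and 6.79 on the IgG arrays.

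The IgG arrays disagreed on the accessory subunits in 1 direction. IgG replicate 1 exceeded IgG replicate 2 in all 28 of them, by 0.05 to 1.64 with a median of 0.43, and in 41 of all 44 members. Among all genes the share was 57.4% with a median gap of 0.06. For genes above the chemosensory level these were 54.9% and 0.04. The RBP arrays showed no such lean, as RBP replicate 1 exceeded RBP replicate 2 in 14 of the 28. The gap between IgG arrays was the wider of the gaps in 25 of the 28 accessory subunits, in 4 of 6 core subunits and in 1 of 7 assembly factors. Gaps over 1 were found in Ndufa7, Ndufb2, Ndufa6, Ndufs5 and Ndufa4.

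The sign of the accessory median depended on which IgG array was kept. The median accessory difference was 0.32 without IgG replicate 1 and -0.17 without IgG replicate 2, and limma called 16 nuclear-encoded members higher and 2 lower in the first setting and 5 higher and 7 lower in the second. Among all genes the shares higher and lower were 25.8% and 9.15% in the first and 24.7% and 14.6% in the second. The medians of core subunits (0.26 to 0.47) and assembly factors (0.30 to 0.37) stayed positive when any single array was left out. Replicate 1 also had the higher summed level of granulocyte and mast cell markers, at 3974 against 2120 for replicate 2 on the RBP arrays and 5285 against 2541 on the IgG arrays, and the same order held for the hepatocyte, macrophage, lymphoid and endothelial lists. The part of these cells in the gaps was not tested.

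**Figure D3:**
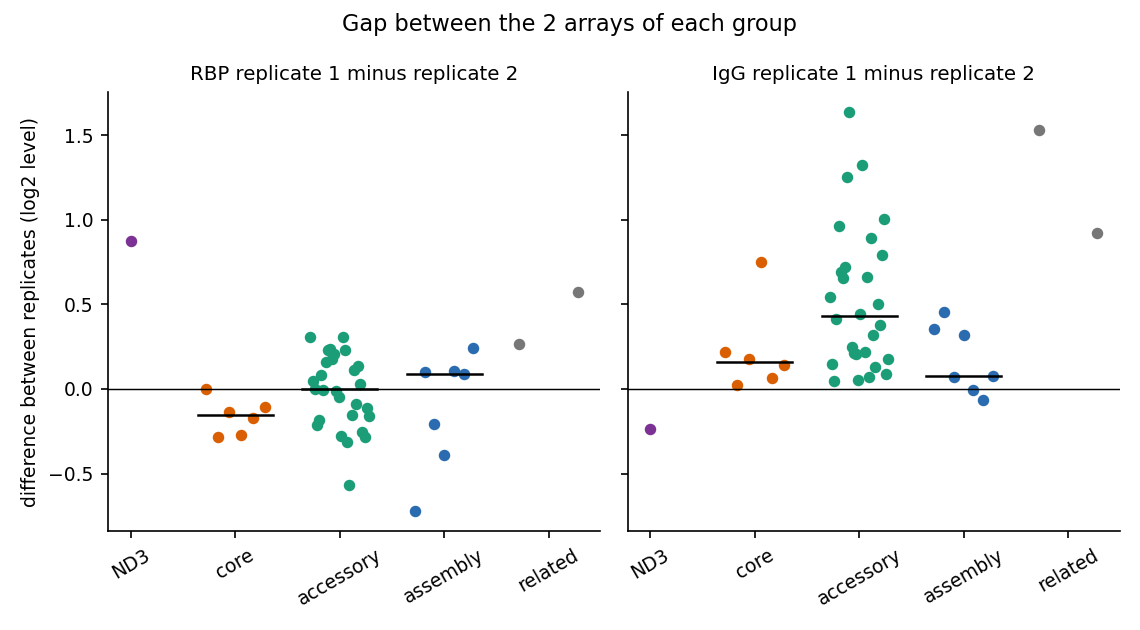
Gap between the arrays of each group (replicate 1 minus replicate 2, log2 level) for the RBP arrays (left) and the IgG arrays (right), with 1 point per member and bars at the medians of classes with more than 2 members. All 28 accessory subunits lie above 0 in the IgG panel, with a median of 0.43, and around 0 in the RBP panel.

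Differences on these arrays went with the level of the gene, and most subunits lay below what genes of like level showed. At mean levels of 8 to 9, where 14 nuclear-encoded members fall, their median difference was 0.25 against 0.78 for all genes at that level, and 4 of the 14 were called higher against 56.4% of all genes there. At 7 to 8 the medians were 0.26 for 11 members and 0.66 for all genes, with 1 of 11 called higher against 47.1%. Relative to the loess trend of the difference on level, 24 of 28 accessory subunits and 4 of 6 core subunits lay below the trend, while 6 of 7 assembly factors lay above it. Of all 19938 genes, 9984 lay above the trend and 9954 below. At mean levels of 5 to 6 the median difference was 0.14 for 4 members and -0.23 for all genes. Ndufaf6, Ndufaf2 and Ndufaf5 lay in that range, where the trend was below 0 (-0.11, -0.13 and -0.19). Ndufaf2 and Ndufaf5 were thus above the trend with differences of -0.02 and -0.04. The median distance from the trend was -0.53 for accessory subunits, -0.22 for core subunits and 0.41 for assembly factors.

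With that trend subtracted, limma called 1 nuclear-encoded member higher and 9 lower, against 5.63% and 5.09% of all genes. Ndufs1 remained higher, by 1.10 (adjusted p = 0.0211), and Ndufb10 remained lower (-1.13, adjusted p = 0.0199). The others called lower were Ndufv2, Ndufa11, Ndufa3, Ndufb11, Ndufb9, Ndufa7, Ndufa12 and Ndufv3, at adjusted p from 0.0205 to 0.0492 in limma. All other calls were lost in that setting, among them those of Ndufaf1, Ndufaf4 and Ndufaf7, at 0.64, 0.56 and 0.42 above the trend (adjusted p = 0.196, 0.140 and 0.150).

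**Figure D4:**
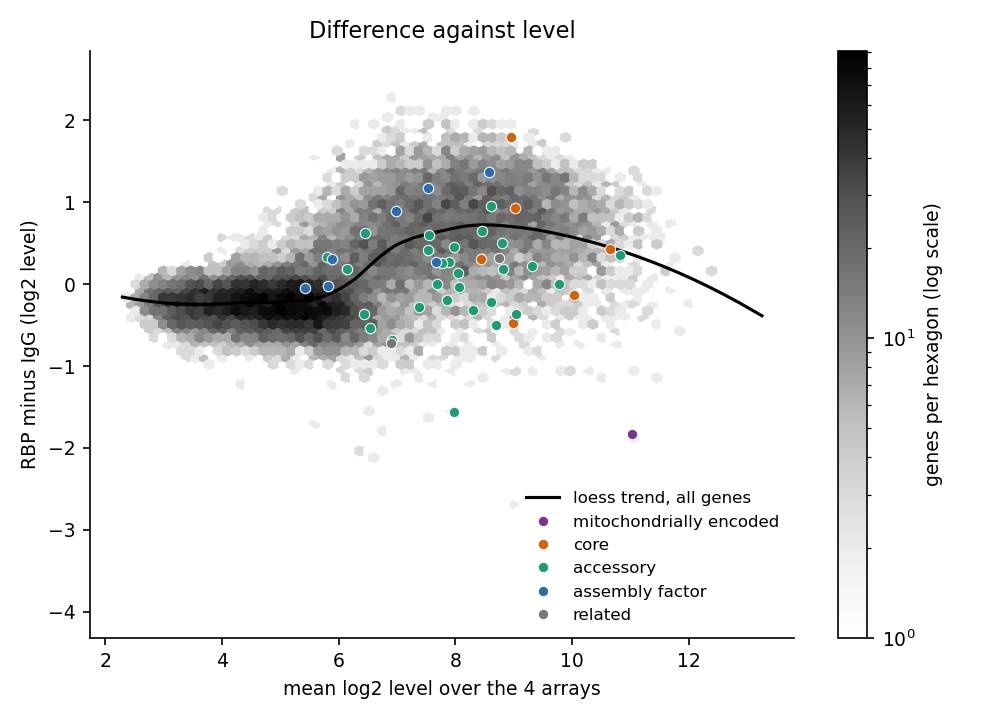
Difference (RBP minus IgG, log2 level) against mean log2 level over the 4 arrays, with all genes as shaded hexagons, their loess trend as a line and complex I members as points coloured by role. Most accessory subunits lie below the line between levels of 7 and 10, whereas Ndufs1 and the called assembly factors lie above it.

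The sign of the median also depended on how the arrays were scaled. Quantile normalization moved the median of all genes to 0.16 and that of the nuclear-encoded members to -0.13, and it left Ndufs1 and Ndufaf7 as the members called higher and Ndufb10, Ndufa11, Ndufa3 and Ndufb9 as those called lower. Centring on the chemosensory receptor genes moved those medians to 0.29 and 0.53, with 17 members called higher and 0 lower by limma (2 lower at an unadjusted p under 0.05). The shares of all genes called higher and lower were 11.1% and 2.77% in the first of these settings and 35.5% and 1.59% in the second. Relative to the median of all genes, the nuclear-encoded members thus stood above it as deposited and after centring, and below it with quantile normalization and with the level trend removed. They also stood below it without IgG replicate 2 (-0.07 against -0.04). Beside genes above the chemosensory level, where all members lie, their median was the lower as deposited (0.22 against 0.40). No called member other than Ndufa9 changed sign in any setting, and Ndufa9 did so with the level trend removed (-0.08).

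Other choices in the fit moved the counts less. Restricted to genes above the chemosensory level, where 38.5% of genes were called higher and 7.13% lower, limma called the same 9 members and added Ndufa7 among the lower. With probe sets averaged per gene (23.6% and 6.4% of all genes), the same 9 were called. With variance moderated along the level and robustly (23.1% and 8.67%), Ndufa9 dropped out (adjusted p = 0.0515). At an adjusted p under 0.1 (28.9% and 13.4%), Ndufs7 and Ndufs6 joined the higher and Ndufa7 the lower. A replicate block called 29.5% of all genes higher and 11% lower, and its counts for complex I are given with the alternatives.

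Beside neighbouring lists, complex I had counts nearest to those of the mitochondrial ribosomal proteins. Of 77 of those, 11 were called higher (14.3%) and 1 lower, with a median of 0.23. The 47 genes of respiratory complexes II to V had 4 higher (8.51%) and 3 lower, with a median of -0.25. The 58 cytosolic ribosomal proteins had 0 higher and 17 lower (29.3%) in limma (1 higher at an unadjusted p under 0.05), with a median of -0.38. Both RBP arrays lay above both IgG arrays in 2 of them (3.45%), against 37.4% of all genes. Among all genes 23.8% were called higher and 6.54% lower, beside 18.6% and 2.33% of the nuclear-encoded complex I members. IgG replicate 1 exceeded IgG replicate 2 in 89.4% of the genes of complexes II to V, 80.5% of the mitochondrial and 87.9% of the cytosolic ribosomal proteins, so the lean between IgG arrays was not found in complex I alone. No test was made of the difference between these lists.

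**Figure D5:**
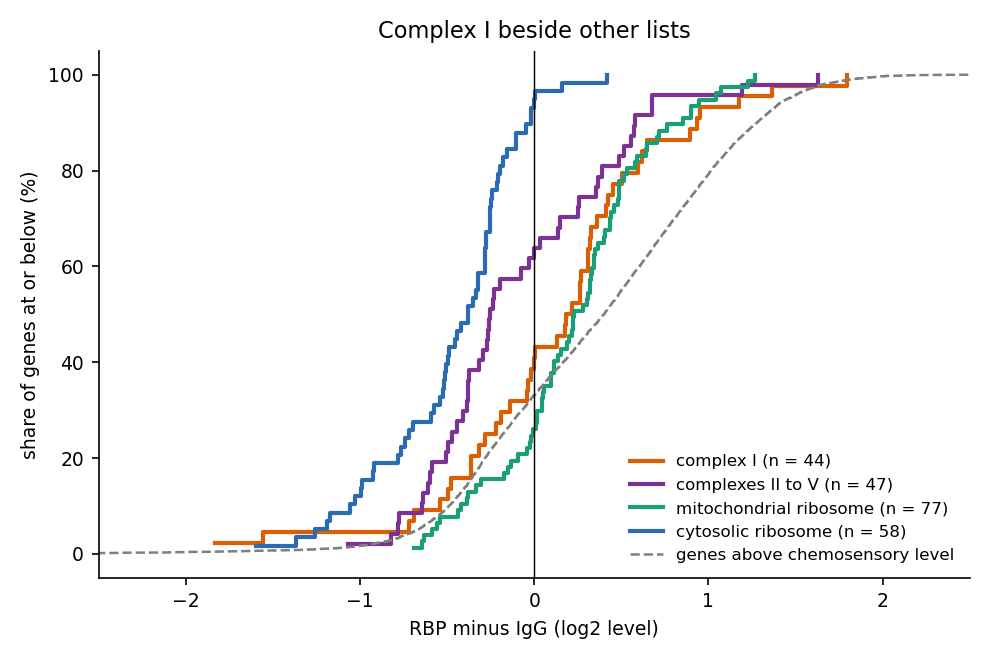
Cumulative share of genes (%) at or below each difference (RBP minus IgG, log2 level) for complex I, complexes II to V, mitochondrial and cytosolic ribosomal proteins, and all genes above the chemosensory level (dashed). Above the median the complex I and mitochondrial ribosome curves run close together, with medians of 0.20 over all 44 members and 0.23, and the cytosolic ribosome curve lies to the left over most of its length.

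For 6 members a second probe set could be compared with the first, and in all 6 the difference had the same sign. The second probe set gave -0.57 against -0.36 for Ndufa11, 0.25 against 0.18 for Ndufab1, -0.13 against -0.22 for Ndufb11, -0.08 against -0.04 for Ndufc1 and 0.35 against 0.31 for Ndufs3. Ndufs5 has a processed copy that another probe set names with it, so its levels of 6.11 and 6.39 on the RBP arrays and 7.12 and 6.11 on the IgG arrays may include that copy.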

How the data were processed

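RNA immunoprecipitated from sorted fetal liver progenitors was hybridised to 4 Affymetrix whole-transcript gene arrays, 2 for the RBP antibody and 2 for IgG, grouped by the titles. The authors deposited log2 expression levels, 1 for each probe set, after RMA in the affy package, per the submitters' processing notes. Versions, further settings, filters and genome build: not given in the sources used here. That the scale is log2 was read from the range of the values. Scanner files were not used.

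Of 35556 probe sets, 21789 carried 1 gene symbol, 1621 several and 12146 none in the platform annotation. The 50 probe sets of the members all matched RefSeq (GRCm38.p6) by Entrez identifier with 0 symbols changed. No filter on level was set. RBP minus IgG was fitted over all genes in R 4.3.3 with limma 3.58.1 (lmFit, eBayes without trend or robust options), two-sided, with Benjamini-Hochberg adjustment; residual and prior degrees of freedom were 2 and 3.76, and the median SE was 0.170. The fit was run on simulated data with independent noise, whose variances were drawn from limma's own fitted prior. Those data held no level trend and no unequal spread between groups. The run therefore checks the code and cannot bear on these features of the arrays. With 2 arrays a group, the smallest exact permutation p is 0.333, so each call depends on the variance that limma pools over genes. Lists are described by counts and medians without a test.

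Named with the level on every array were ND3, all core subunits and Ndufaf genes, up to 8 called accessory subunits by size and the 4 with the smallest difference; other members named were chosen after their values were seen. Members, lists and alternatives were chosen with earlier results of these data known.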

Additional observations from a re-analysis of the deposited data

How the results depend on the processing

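Of 231 values of named nuclear-encoded genes under 11 alternatives, 165 kept direction and side of the threshold, 30 lost the call, 7 gained one and 29 changed sign. The cause of no such change was tested. With quantile normalization, 2 members were called higher and 4 lower, and the median difference was -0.15 over all 44 members, -0.0046 for core, -0.30 for accessory and 0.57 for assembly genes. Signs turned for Ndufs3 (-0.22), Ndufaf3 (-0.12), Ndufaf2 (0.25), Ndufaf5 (0.28), Ndufa10 (-0.43) and Ndufb7 (-0.32). Centring on chemosensory genes gave 17 higher and 0 lower in limma, medians of 0.68 for core and 0.62 for assembly genes, and turned Ndufv2 (0.18), Ndufaf2 (0.29), Ndufaf5 (0.27), Ndufb8 (0.31) and Ndufc1 (0.28). Removing the level trend gave 1 higher and 9 lower, medians of -0.40 over all members, -0.22 for core and -0.53 for accessory genes, and turned Ndufs7 (-0.024), Ndufs3 (-0.41), Ndufaf3 (-0.37), Ndufaf2 (0.11), Ndufaf5 (0.15), Ndufa9 (-0.080), Ndufa10 (-0.60) and Ndufb7 (-0.56). The filter at the chemosensory level and a threshold of 0.1 each gave 2 lower. With the replicate number as a block (replicate block), 9 members were called higher and 3 lower, adding Ndufb5 among the higher and Ndufa7 and Ndufa4l2 among the lower. Deviations of same-numbered arrays correlated at 0.26 over all genes and 0.13 over members, from 2 pairs, and no label states a shared origin. Several marker lists of other cells were higher on replicate 1 in both groups, as given above. The erythroid list was higher on replicate 2 in both. Whether same-numbered arrays share a preparation of cells was not tested. Leaving out each array in turn gave 1 to 16 members higher and 0 to 7 lower, medians of -0.08 to 0.31 over all members, 0.26 to 0.47 for core, -0.17 to 0.32 for accessory and 0.30 to 0.37 for assembly genes, and -2.27 to -1.39 for ND3. Ranges that crossed 0 were -0.25 to 0.21 for Ndufaf2, -0.10 to 0.0096 for Ndufaf5, -0.16 to 0.15 for Ndufb8, -0.067 to 0.082 for Ndufa10, -0.29 to 0.21 for Ndufc1 and -0.31 to 0.58 for Ndufb7. A setting with 1 array in a group assumes that array varies like the other group. Background correction from scanner files was not run.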

Other observations

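Other readings bear on mitochondrially encoded transcripts. A probe set that carries both ND6 and Acsm2, and so names neither, had 8.36 and 8.21 on the RBP arrays against 11.95 and 11.73 on the IgG arrays, a difference of -3.55. The probe set carrying COX2, a subunit of cytochrome c oxidase, had 11.39 and 11.01 on the RBP arrays against 12.75 and 12.77 on the IgG arrays, a difference of -1.56. Both were lower on each RBP array, as ND3 was, and both were picked out after their values were seen. The 2 probe sets shared by Ndufb4 and Ndufb4b differed by -0.02 and -0.07, with IgG replicate 1 again above IgG replicate 2 (9.46 against 8.75, and 9.95 against 9.29).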
